A study of Mus musculus with 8 samples.

Results

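Bile acid synthesis and transport genes were examined in the liver of aged obese mice with and without dietary docosahexaenoic acid (DHA). The set holds 10 of the 56884 genes in the count tables, chosen by name for their known roles: Cyp7a1, Cyp8b1, Cyp27a1, Cyp7b1, Nr1h4, Nr0b2, Slc10a1, Abcb11, Slc27a5 and Baat. The choice was made with earlier results of these data known. Each symbol matched 1 Ensembl identifier, and all 10 genes passed the filter on low counts that left 12412 genes for testing. The mice were C57BL/6J females killed at 18 months of age after an overnight fast, and liver RNA was sequenced with 1 library per mouse. The DIO group (n = 3, replicates 1, 4 and 5) was kept from 2 months of age on high-fat feed, in which lipids gave 45% of the energy. The DIO + DHA group (n = 5, replicates 1, 2, 4, 5 and 6) shared that diet for 4 months, after which a fish oil concentrate with 683.4 mg/g DHA and 46.7 mg/g EPA took the place of 15% of the dietary lipids by weight. Both groups carried diet-induced obesity by design, and lean mice were not part of the comparison.

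Bile acids are made from cholesterol in hepatocytes. The classic pathway starts with Cyp7a1 in the endoplasmic reticulum and the alternative pathway with Cyp27a1 in mitochondria, and the products are joined to taurine or glycine before export into bile. Returning bile acids activate the nuclear receptor FXR, encoded by Nr1h4, which induces the repressor SHP, encoded by Nr0b2, and SHP in turn holds back synthesis genes. Most bile acids that enter the intestine are taken up again and come back to the liver through the portal blood, where sodium-dependent and sodium-independent carriers clear them.

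The libraries held 1723800 to 5690347 counts, and the shallowest was DIO replicate 1. Values are given as CPM, read counts scaled to a common library total with TMM factors (per 1e+06 counts), and a ± marks the SD over the 3 DIO or the 5 DIO + DHA libraries. They were not divided by gene length, because the protocol enriches the 3′ ends of transcripts, so levels are compared between libraries and not between genes. Summed CPM of 8 hepatocyte markers, of which Alb, Ttr and Apoa1 were the most abundant, lay between 77041 and 82445 in the DIO libraries and between 80408 and 94842 in the DIO + DHA libraries (exact two-sided permutation p = 0.0893, and 0.0286 without DIO + DHA replicate 5). Within this list, 2 genes were higher and 2 lower at an edgeR adjusted p under 0.05 (50%, against 15.2% of all tested genes). Apoa1 and Tat were higher (log2 fold change 0.52 and 0.24), and Hnf4a and Serpina1c were lower (-0.53 and -0.17). The libraries of the groups did not overlap in 3 of the 8, against 18.4% of all tested genes. Markers of several other tissues and cells also differed between the groups. Summed CPM of 8 skeletal muscle genes, led by Acta1, Tnnt3 and Mylpf, was 28.2 to 34.2 in the DIO libraries and 1136 to 1194 in the DIO + DHA libraries, at most 0.119% of a library. The source of these muscle transcripts was not tested. Summed CPM of 8 macrophage and Kupffer cell genes, led by Cd5l, Clec4f and C1qa, fell from between 434 and 492 to between 245 and 286. Both differences had an exact permutation p of 0.0179 (adjusted 0.0321 over 9 marker lists). The 8 macrophage and Kupffer cell genes did not move as 1 list. At an edgeR adjusted p under 0.05, 6 were lower and 1, Marco, was higher (87.5%, against 15.2% of all tested genes). Marco averaged 30.4 ± 2.21 CPM with DHA and 19.6 ± 1.51 CPM without, and Timd4 did not pass (log2 fold change 0.19). In bulk liver, fewer cells of a type and less RNA per cell cannot be told apart.

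With edgeR's quasi-likelihood test and Benjamini-Hochberg adjustment over all tested genes, 6 of the 10 bile acid genes passed an adjusted p of 0.05. Of these, 2 were higher in the DIO + DHA group, Nr0b2 and Cyp8b1, and 4 were lower, Nr1h4, Baat, Cyp27a1 and Slc27a5. Over all tested genes, 15.2% were called, 7.89% as higher and 7.28% as lower. The libraries of the groups did not overlap in 5 of the 10 genes, against 18.4% of all tested genes. The median log2 fold change of the 10 genes was -0.07, with a median absolute value of 0.25, against 0.00 and 0.22 over all tested genes. With limma-voom and the log-odds B above 0, the threshold of the study's methods, 3 of the 10 were called, Nr0b2 and Cyp8b1 higher and Nr1h4 lower, where 6.93% of all tested genes were called.

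**Figure D1:**
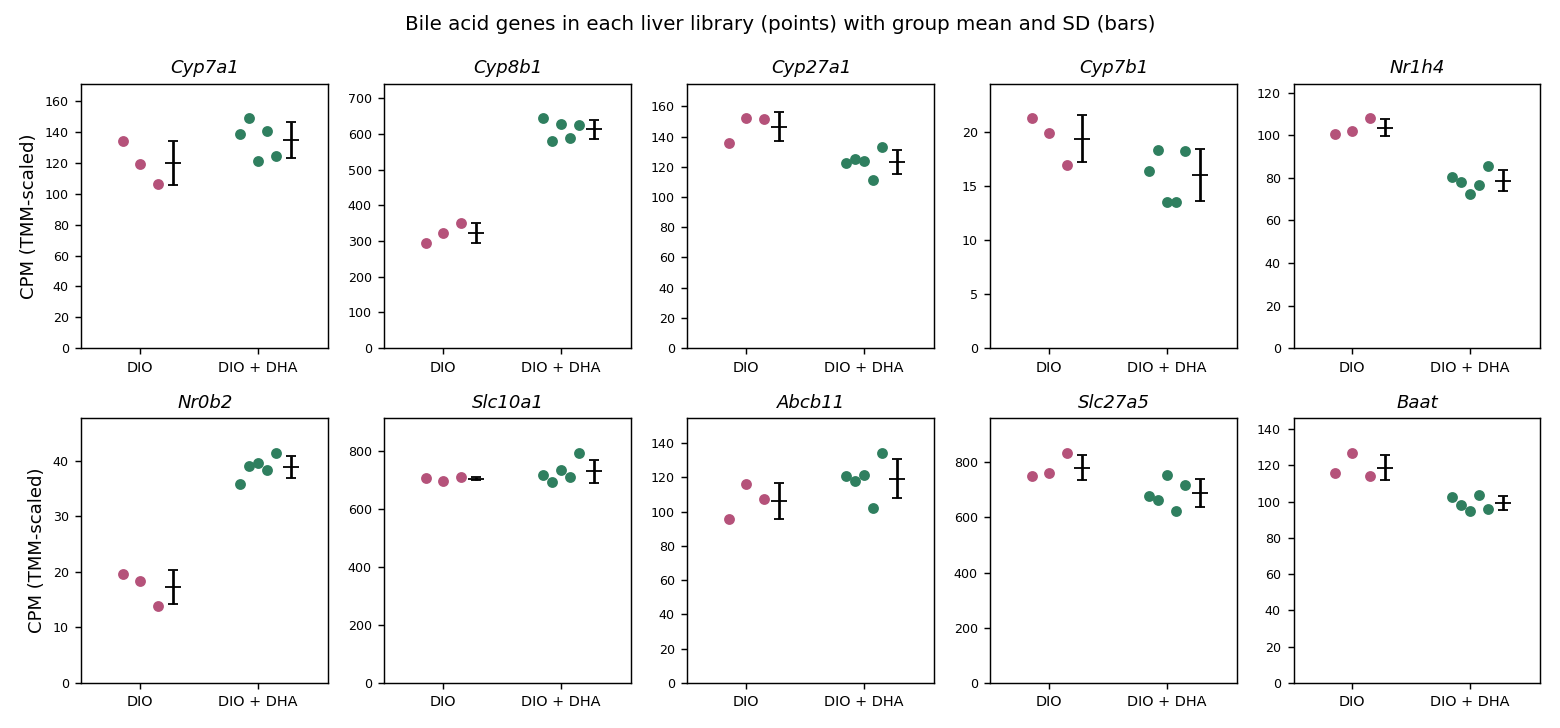
CPM (TMM-scaled, y axis from 0) of the 10 bile acid genes in each DIO library (n = 3) and DIO + DHA library (n = 5), with the group mean and SD beside the points. Cyp8b1 and Nr0b2 lie higher in every DIO + DHA library than in any DIO library, Nr1h4, Cyp27a1 and Baat lie lower, and the other 5 genes overlap.

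Among the synthesis enzymes, Cyp8b1 had the clearest difference. Cyp8b1 is the sterol hydroxylase that directs the classic pathway to cholic acid, and its gene has a single exon on chromosome 9 (ENSMUSG00000050445.5, GRCm39, 121743422 to 121745371, minus strand). Its level was 294, 322 and 349.6 CPM in DIO replicates 1, 4 and 5 and 644, 580.1, 627, 588 and 624 CPM in DIO + DHA replicates 1, 2, 4, 5 and 6. The lowest DIO + DHA library was thus far above the highest DIO library. The mean of 613 ± 27.5 CPM in the DIO + DHA group against 322 ± 27.98 CPM in the DIO group was a 1.90-fold higher level with a 95% interval of 1.72 to 2.09 (log2 fold change 0.92, standard error 0.07, edgeR adjusted p = 2.7e-16). Between 523 and 3255 counts stood behind each library's value.

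Cyp7a1, the rate-limiting enzyme of the classic pathway (ENSMUSG00000028240.3, chromosome 4, 6265612 to 6275633), did not pass the test. Its level was 134, 119.7 and 106 CPM in the DIO libraries and 139, 149, 121, 141 and 125 CPM in the DIO + DHA libraries. The groups overlapped, with DIO replicate 1 above 2 of the DIO + DHA libraries. The log2 fold change was 0.19 with a 95% interval of 0.02 to 0.36 (edgeR adjusted p = 0.136), so a rise of up to 1.28-fold was within the interval. Without DIO replicate 1, the highest and shallowest DIO library, the value was 0.26 and passed the test (adjusted p = 0.0404).

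Cyp27a1, the mitochondrial enzyme that opens the alternative pathway and also oxidizes the sterol side chain in the classic pathway (ENSMUSG00000026170.7, chromosome 1, 74752733 to 74777051), was lower in the DIO + DHA group. Its level was 136, 152 and 152 CPM in the DIO libraries and 123, 125, 124, 111 and 133 CPM in the DIO + DHA libraries. All 5 DIO + DHA libraries lay below the lowest DIO library, by a narrow margin in replicate 6. The log2 fold change was -0.26 (standard error 0.08, edgeR adjusted p = 0.0146), or 0.834 of the DIO level. The call was lost without DIO replicate 4 (-0.23, adjusted p = 0.116) and without DIO replicate 5 (-0.23, adjusted p = 0.0962).

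Cyp7b1, the oxysterol hydroxylase that follows Cyp27a1 in the alternative pathway (ENSMUSG00000039519.7, chromosome 3, 18126114 to 18297502), had the fewest counts of the synthesis enzymes in the set, 38 to 111 per library. It was at 21.3, 20.0 and 17.0 CPM in the DIO libraries and at 16.4, 18.4, 13.5, 13.6 and 18.3 CPM in the DIO + DHA libraries. The groups overlapped, and the log2 fold change of -0.24 did not pass (95% interval -0.55 to 0.07, edgeR adjusted p = 0.347). At this depth, neither a fall to 0.684 of the DIO level nor a rise to 1.05 times it was outside the interval.

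The control genes of the set moved in opposite directions. Nr1h4 encodes FXR, the bile acid receptor (ENSMUSG00000047638.16, chromosome 10, 89290096 to 89369447). Its level was 100.5, 102 and 108 CPM in the DIO libraries and 80.6, 78.2, 72.3, 76.4 and 85.6 CPM in the DIO + DHA libraries, with no overlap. The DIO + DHA mean was 78.6 ± 4.96 CPM and the DIO mean 104 ± 3.98 CPM, and the log2 fold change was -0.40 (standard error 0.08, edgeR adjusted p = 3.2e-04). The DIO + DHA level was 0.760 of the DIO level, with a 95% interval of 0.676 to 0.854.

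Nr0b2 encodes SHP, an orphan receptor without a DNA-binding domain that represses other nuclear receptors and is itself a target of FXR (ENSMUSG00000037583.3, chromosome 4, 133280687 to 133283847). It was at 19.6, 18.4 and 13.8 CPM in the DIO libraries and at 35.8, 39.1, 39.5, 38.3 and 41.4 CPM in the DIO + DHA libraries. Every DIO + DHA library was above every DIO library, and DIO replicate 5 was the lowest. The mean of 38.8 ± 2.03 CPM in the DIO + DHA group against 17.3 ± 3.06 CPM in the DIO group was a 2.32-fold higher level with a 95% interval of 1.93 to 2.79 (log2 fold change 1.21, standard error 0.13, edgeR adjusted p = 8.9e-11). These values rested on 35 to 190 counts per library.

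Promoter sequences of Cyp8b1 and Nr0b2 are given because these genes were higher in the DIO + DHA group and because SHP, the product of Nr0b2, is known to repress Cyp8b1. Each stretch holds the 250 bases before the start of the Ensembl canonical transcript in GENCODE vM39, read 5′ to 3′ from GRCm39 on the strand of the gene. Gene positions in this text come from GENCODE vM33, behind the counts, where Nr0b2 starts at 133280687 and not at 133280678. The Cyp8b1 stretch is chr9:121745372-121745621 on the minus strand and the Nr0b2 stretch is chr4:133280428-133280677 on the plus strand.
Cyp8b1: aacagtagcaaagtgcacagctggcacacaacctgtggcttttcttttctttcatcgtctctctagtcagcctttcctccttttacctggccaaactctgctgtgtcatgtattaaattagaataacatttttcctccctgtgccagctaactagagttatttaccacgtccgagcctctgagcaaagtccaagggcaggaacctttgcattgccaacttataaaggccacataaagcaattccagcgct
Nr0b2: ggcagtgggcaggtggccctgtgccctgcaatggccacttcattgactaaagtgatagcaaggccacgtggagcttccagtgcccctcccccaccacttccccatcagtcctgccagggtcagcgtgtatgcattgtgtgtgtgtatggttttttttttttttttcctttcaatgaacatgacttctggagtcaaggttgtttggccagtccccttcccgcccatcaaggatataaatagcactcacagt

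Motifs were searched on both strands and without mismatch in the same 250 bases of 21770 protein-coding genes. Those reported here are the nuclear receptor core site AGGTCA and its inverted and direct repeats spaced by 1 base (AGGTCANTGACCT and AGGTCANAGGTCA), which contain it. Of the 10 genes, 3 held the core site (Cyp7b1, Nr1h4 and Slc10a1), which 13.1% of all promoters held. None of the 10 held the direct repeat (0.0367% of all promoters) or the inverted repeat, which no promoter held. The Cyp8b1 and Nr0b2 stretches held none of these 3 motifs. A match describes the letters in the window and is not a measured binding site. Likewise, the lack of an exact match does not show that a promoter has no receptor site.

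Both conjugation genes were lower in the DIO + DHA group. Baat, the enzyme that joins bile acids to taurine or glycine (ENSMUSG00000039653.10, chromosome 4, 49489422 to 49506557), was at 116, 127 and 114 CPM in the DIO libraries and at 102, 98.3, 94.7, 104 and 96.1 CPM in the DIO + DHA libraries. The groups did not overlap, and the log2 fold change was -0.26 (standard error 0.08, edgeR adjusted p = 0.0163), or 0.833 of the DIO level. Its call was lost without DIO replicate 4, the highest library (-0.20, adjusted p = 0.203).

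Slc27a5, which encodes the ligase that activates bile acids with coenzyme A before conjugation (ENSMUSG00000030382.16, chromosome 7, 12722273 to 12732119), was at 749, 759.8 and 834 CPM in the DIO libraries. In the DIO + DHA libraries it was at 676, 665, 756, 625 and 716 CPM, and replicate 4 overlapped with the DIO group. The log2 fold change of -0.19 passed the test by a narrow margin (standard error 0.07, edgeR adjusted p = 0.0472). The call was lost in 10 of 18 alternative settings, among them the fit without DIO replicate 5 (-0.12, adjusted p = 0.329). It thus rested on the choice of test and libraries.

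The main transporters of conjugated bile acids did not pass the test. Slc10a1 encodes NTCP, the sodium-dependent uptake carrier of the blood-facing membrane (ENSMUSG00000021135.9, chromosome 12, 80999957 to 81015479). Its level was 708, 698 and 709 CPM in the DIO libraries and 716, 694.5, 734, 710.3 and 794 CPM in the DIO + DHA libraries. The log2 fold change was 0.05 with a 95% interval of -0.08 to 0.18 (edgeR adjusted p = 0.704), so rises above 1.13-fold and falls below 0.947 of the DIO level lay outside the interval.

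Abcb11 encodes BSEP, the pump that exports bile acids into the canaliculus (ENSMUSG00000027048.16, chromosome 2, 69068626 to 69172960). It was at 95.4, 116 and 107 CPM in the DIO libraries and at 121, 118, 121, 102 and 134 CPM in the DIO + DHA libraries, and the groups overlapped. The log2 fold change was 0.15 with a 95% interval of -0.02 to 0.32 (edgeR adjusted p = 0.283). Other genes share 3.01% of its exon bases, and reads in that stretch were not assigned. The remaining 9 genes of the set share no exon bases with another gene.

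Ratios of counts within a library compare members without any scaling between libraries, and 6 were computed. The Cyp8b1 to Cyp7a1 log2 ratio averaged 2.19 ± 0.17 over the 5 DIO + DHA libraries and 1.42 ± 0.29 over the 3 DIO libraries. The groups did not overlap (exact two-sided permutation p = 0.0179, the smallest that 3 against 5 libraries allow, and 0.0536 after Benjamini-Hochberg adjustment over the 6 ratios). Counts of Cyp8b1 were 2.68 times those of Cyp7a1 in the DIO group and 4.55 times in the DIO + DHA group, as geometric means.

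The Nr0b2 to Nr1h4 log2 ratio went from -2.59 ± 0.33 to -1.01 ± 0.11, also without overlap (exact permutation p = 0.0179, adjusted 0.0536). Both genes were already apart in opposite directions, so their ratio had to separate the groups and is not a further result. There were 0.166 counts of Nr0b2 per count of Nr1h4 in the DIO group and 0.495 in the DIO + DHA group. The Cyp7b1 to Cyp7a1 log2 ratio was -2.62 ± 0.03 and -3.07 ± 0.22, lower in all 5 DIO + DHA libraries (exact permutation p = 0.0357, adjusted 0.0714). For Cyp27a1 to Cyp7a1, the groups overlapped and the difference of -0.42 had an exact permutation p of 0.0714 (adjusted 0.107). The differences of the Abcb11 to Slc10a1 ratio (0.12, exact permutation p = 0.321) and of the Baat to Slc27a5 ratio (-0.08, exact permutation p = 0.5) were within the spread of the libraries.

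**Figure D2:**
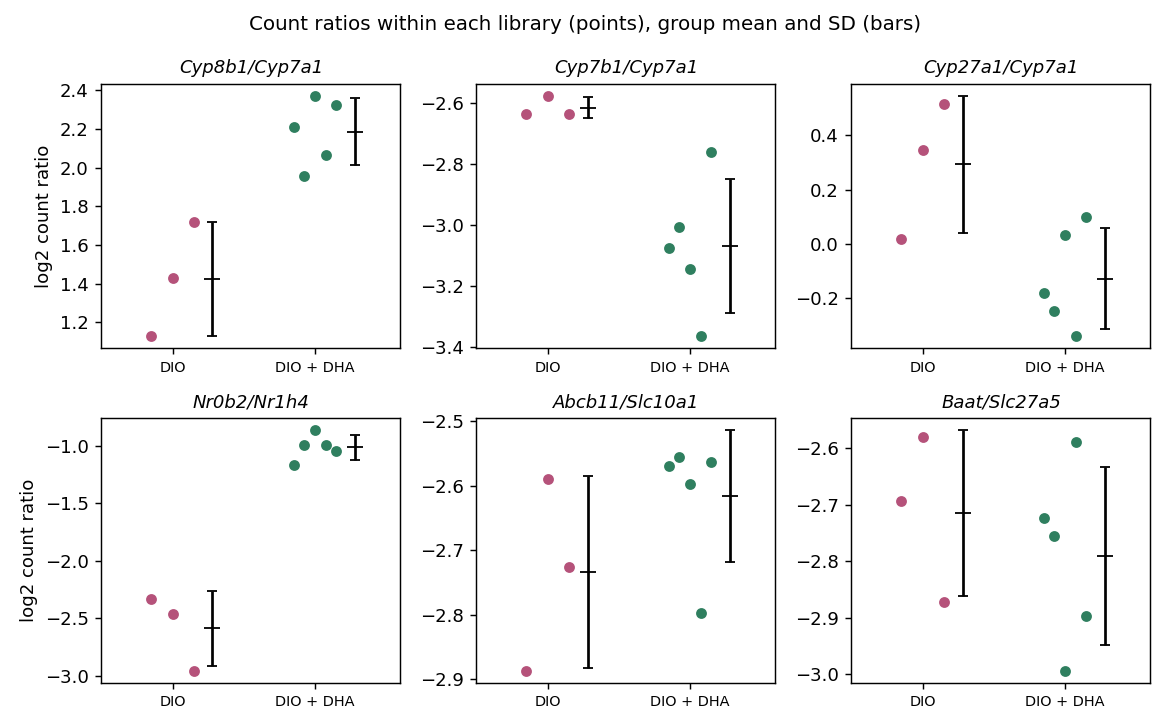
Log2 ratio of the counts of 2 bile acid genes within each library (y axis, not starting at 0), for DIO (n = 3) and DIO + DHA (n = 5), with group mean and SD. The Cyp8b1 to Cyp7a1 and Nr0b2 to Nr1h4 ratios are higher in all 5 DIO + DHA libraries, from 1.96 to 2.37 and from -1.17 to -0.87, and the transporter and conjugation ratios overlap.

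Other genes of the pathway were taken from 3 lists of 48 genes in all, of which 41 passed the filter. Of these, 6 were higher and 10 lower at an adjusted p under 0.05, or 39.0%, against 15.2% of all tested genes. The lists were chosen with earlier results of these data known. The 12 tested synthesis genes had 4 higher and 4 lower (66.7%). The 14 tested transport genes had 1 higher and 3 lower (28.6%), and the 15 tested control genes 1 higher and 3 lower (26.7%). The medians of the 3 lists were 0.05, 0.04 and -0.01 on the log2 scale.

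**Figure D3:**
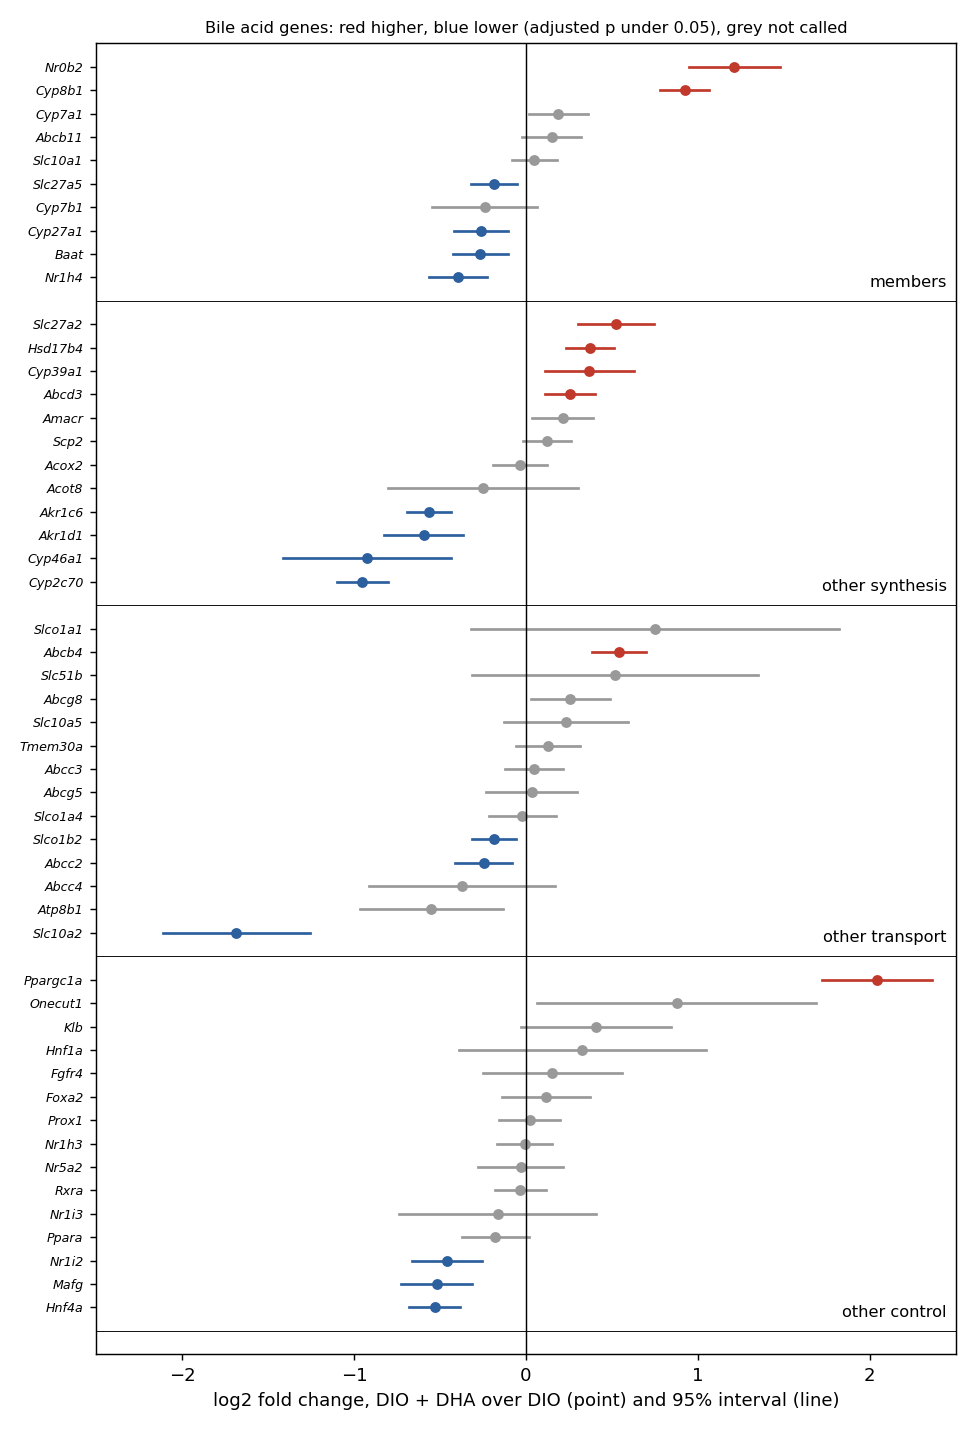
Log2 fold change of DIO + DHA over DIO (x axis) with its 95% interval from the edgeR fit, for the 10 genes of the set and the 41 tested genes of the other lists. Red and blue mark genes called higher and lower at an adjusted p under 0.05, with Ppargc1a at 2.04 and Slc10a2 at -1.68 the farthest from 0.

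Among the other synthesis genes, Cyp2c70, Akr1d1 and Akr1c6 were lower. Cyp2c70, the mouse hydroxylase that makes muricholic acids, was at 230, 238 and 232 CPM in the DIO libraries and at 114, 125, 112, 125 and 126 CPM in the DIO + DHA libraries. The level was near 0.517 of the DIO level in a tight group of libraries (log2 fold change -0.95, standard error 0.07, edgeR adjusted p = 6.0e-16). Akr1d1, the reductase of the sterol ring in bile acid synthesis, and Akr1c6, a related aldo-keto reductase, fell by 0.59 and 0.56 on the log2 scale (edgeR adjusted p = 1.2e-04 and 3.5e-10). The mean of Akr1c6 was 485 ± 7.92 CPM in the DIO + DHA group and 718 ± 45.6 CPM in the DIO group. Cyp2c70 and Akr1c6 belong to families of similar genes, and reads that aligned to several places were not counted.

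Of 7 genes of the peroxisomal side chain steps, 3 were higher and 4 did not pass, where 7.89% of all tested genes were called higher. Slc27a2, an acyl-CoA synthetase that also activates very long fatty acids, was at 2369.9 ± 305 CPM in the DIO + DHA group against 1649.6 ± 173 CPM in the DIO group, or higher by 0.52 on the log2 scale (edgeR adjusted p = 0.00265). Its call was lost with scaling by library size only (0.50, adjusted p = 0.0759). Hsd17b4, the bifunctional enzyme of peroxisomal oxidation, and Abcd3, a peroxisomal importer, rose by 0.37 and 0.26 (edgeR adjusted p = 4.9e-05 and 0.00919), and the call of Abcd3 was lost without DIO + DHA replicate 2 (adjusted p = 0.0537). Amacr, Acox2, Scp2 and Acot8 had values of 0.21, -0.03, 0.12 and -0.25. Most of these proteins also serve the oxidation of fatty acids.

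The oxysterol enzymes Cyp46a1 and Cyp39a1 were called on few counts. Cyp46a1, the cholesterol hydroxylase best known from brain, averaged 4.27 ± 1.32 CPM with DHA and 8.03 ± 0.762 CPM without, on 8 to 49 counts per library (log2 fold change -0.92, edgeR adjusted p = 0.00447, and 0.0551 without DIO replicate 4). Cyp39a1, an oxysterol hydroxylase, averaged 29.3 ± 2.04 CPM with DHA and 22.2 ± 3.22 CPM without (log2 fold change 0.37, edgeR adjusted p = 0.0412). Its call was lost in 11 of 18 alternative settings. Hsd3b7, the dehydrogenase of the second step of the classic pathway, had 0 counts in every library. Other annotated genes share 99.2% of its exon bases, so its level could not be read from these counts.

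In the transport list, Slc10a2 and Abcb4 differed most clearly. Slc10a2 encodes ASBT, a sodium-dependent bile acid carrier known from the ileum and from bile duct cells. It was at 15.2, 16.9 and 14.3 CPM in the DIO libraries and at 3.76, 6.69, 6.05, 6.08 and 2.61 CPM in the DIO + DHA libraries, a log2 fold change of -1.68 (standard error 0.21, edgeR adjusted p = 6.4e-09) on 12 to 94 counts per library. Of 7 tested genes that mark bile duct cells, 1 was called (14.3%, against 15.2% of all tested genes). This was Sox9, which was higher on 2 to 27 counts per library (log2 fold change 0.97, edgeR adjusted p = 0.0344). None of the 7 separated the groups. Spp1, the most abundant of them, averaged 52.5 ± 4.23 CPM with DHA and 54.4 ± 3.36 CPM without. The defining keratins Krt19 and Krt7 averaged at most 1.41 CPM in either group. The part of bile duct cells in the fall of Slc10a2 was not tested. Fgf15, the hormone by which the ileum signals bile acid uptake, had 0 counts in every library, as had the intestinal factor Cdx2.

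Abcb4, the phospholipid exporter that protects the biliary tree from bile acids and an FXR target, was at 253 ± 23.1 CPM with DHA and 174 ± 5.66 CPM without, and rose by 0.54 on the log2 scale (standard error 0.08, edgeR adjusted p = 1.5e-07). Slco1b2, a sodium-independent uptake carrier, and Abcc2, a canalicular exporter of conjugates, fell by 0.18 and 0.25 on the log2 scale (edgeR adjusted p = 0.0361 and 0.0308). These calls were lost in 8 and 9 of 18 alternative settings. The 10 transport genes that did not pass ranged from -0.55 to 0.75, with Atp8b1 lowest and Slco1a1, which had 1 to 12 counts per library, highest.

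Of the control genes outside the set, Hnf4a, Mafg and Nr1i2 were lower and Ppargc1a was higher. Hnf4a, the hepatocyte factor that activates several bile acid synthesis genes, was at 167 ± 10.01 CPM with DHA and 241 ± 10.9 CPM without, and fell by 0.53 on the log2 scale (edgeR adjusted p = 7.1e-08). Mafg, a repressor of synthesis genes that FXR induces, fell by 0.52 (edgeR adjusted p = 1.1e-04). Nr1i2, the xenobiotic receptor PXR, which also senses bile acids, fell by 0.46 (edgeR adjusted p = 6.6e-04), and without DIO replicate 5 its value of -0.28 did not pass (adjusted p = 0.127). Ppargc1a, a coactivator of many nuclear receptors, averaged 34.6 ± 4.75 CPM with DHA and 7.95 ± 1.24 CPM without, a 4.12-fold rise (log2 fold change 2.04, edgeR adjusted p = 7.0e-16). Skeletal muscle also expresses Ppargc1a, and muscle genes rose in the same libraries. Their part in its rise was not tested.

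The receptor pair for the ileal signal, Fgfr4 and Klb, had log2 fold changes of 0.15 and 0.41 and neither passed the test. Nr5a2, which encodes LRH-1, the partner that SHP represses at synthesis genes, averaged 32.1 ± 4.27 CPM with DHA and 32.3 ± 3.83 CPM without, with a value of -0.03 (edgeR adjusted p = 0.921). Rxra, the partner of FXR, had -0.03 (edgeR adjusted p = 0.849). Vdr had 0 counts in every library, which allows up to 0.527 to 1.74 CPM, or 3 counts, depending on the library.

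**Figure D4:**
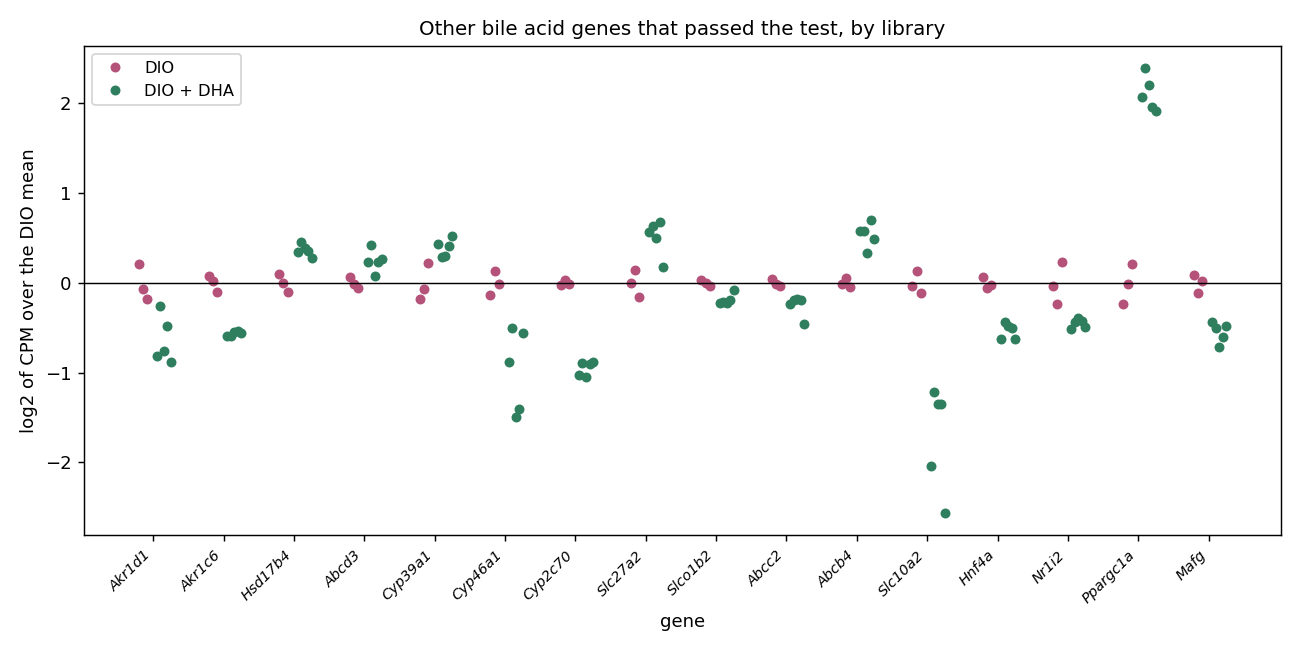
Log2 of CPM over the DIO mean (y axis) of the 16 other bile acid genes with an adjusted p under 0.05, in each DIO library (n = 3) and DIO + DHA library (n = 5). Cyp2c70 and Akr1c6 form tight groups below 0, and Slc10a2 and Ppargc1a lie farthest from 0 in opposite directions.

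Bile acid genes vary with the time of day and along the liver lobule, so marker lists for both were measured. Summed CPM of 14 clock genes, led by Tef, Hlf and Nr1d2, was 279 to 308 in the DIO libraries and 198 to 213 in the DIO + DHA libraries (exact two-sided permutation p = 0.0179, adjusted 0.0321 over 9 marker lists). Of 13 tested clock genes, 7 were lower and 1 higher (61.5% called, against 15.2% of all tested genes). Whether the difference in clock genes had a part in the values of Cyp8b1, Nr0b2 or Cyp7a1 was not tested. Summed CPM of 9 genes of the zone around the central vein, led by Cyp2e1, Oat and Glul, was 5159 to 5349 and 4651 to 5181 (exact permutation p = 0.0714). Of these 9, 2 were higher and 3 lower (55.6% called, against 15.2% of all tested genes). For 8 genes of the portal zone, led by Pck1, Ass1 and Hsd17b13, the sum was 2798 to 3045 and 2917 to 3211 (exact permutation p = 0.321). Of these 8, 2 were higher and 1 lower (37.5% called). Both sums overlapped between the groups, but several zone genes did not. The groups were apart in 7 of the 9 central genes and in 4 of the 8 portal genes, against 18.4% of all tested genes. Among the central genes, Oat and Axin2 lay above and Glul, Cyp2e1 and 3 more below the DIO libraries. The part of zonation in the values of the bile acid genes was not tested.

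The remaining marker lists were those of squamous epithelium and of enterocytes. Summed CPM of 8 squamous genes, led by Krt4, Krt13 and Lgals7, was at most 0.180 in a DIO library and 50.8 to 54.3 in the DIO + DHA libraries. For 6 enterocyte genes, it was 752 to 816 and 1792 to 2113, and both lists had an exact permutation p of 0.0179 (adjusted 0.0321). Most of that sum was Apoa4 and Fabp2, which mouse liver also expresses, followed by Lgals4. When the muscle and squamous genes were left out of the scaling, the same 2 members were called higher and 4 lower. That change moved the median log2 fold change of all genes by 1.8e-04 and concerned the scaling alone. The part of muscle or squamous tissue in the values of the 10 genes was not tested. The source of the squamous transcripts was not tested.

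Across 18 alternative settings, each of the 10 genes kept the sign of its fold change. In 2 of these settings the same limma-voom fit was read at different thresholds. Cyp8b1 stayed between 0.87 and 1.00 and Nr0b2 between 1.06 and 1.33 on the log2 scale when 1 library was left out, and Nr1h4 between -0.44 and -0.35. These 3 genes were called in all 18 settings.

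**Figure D5:**
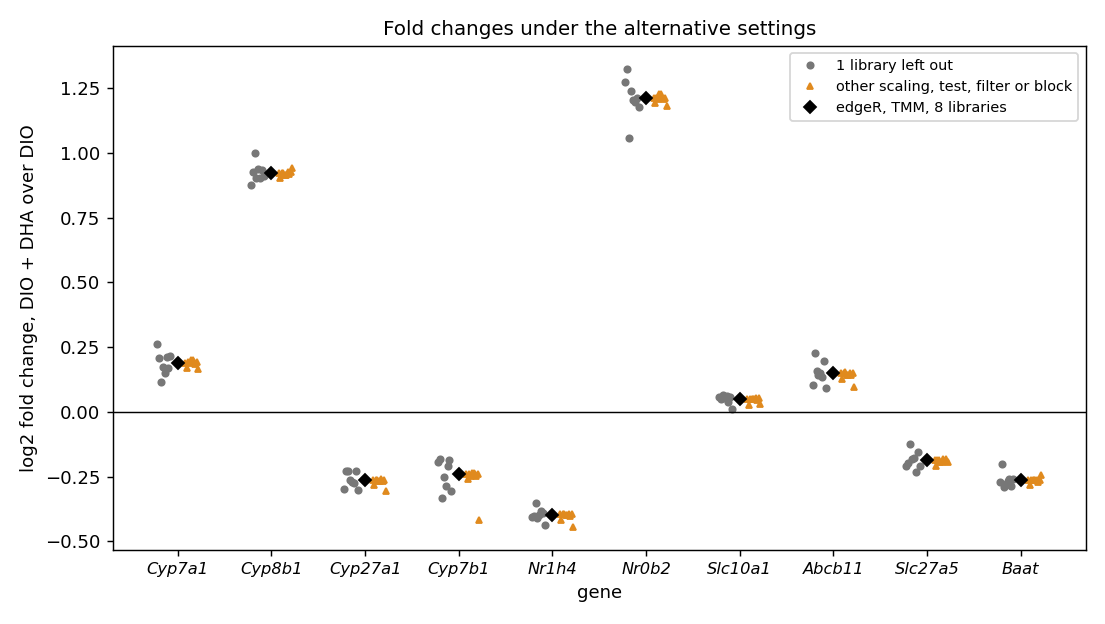
Log2 fold change of DIO + DHA over DIO (y axis) of the 10 bile acid genes in the edgeR fit of 8 libraries (diamond), in 8 fits that each left out 1 library (circles) and in 10 settings with another scaling, test, filter or a replicate block (triangles). The 2 limma-voom settings share the same fit. No point crosses 0, and Nr0b2, Cyp8b1 and Nr1h4 stay apart from it by at least 0.35.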

How the data were processed

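Liver poly(A) RNA of 3 DIO and 5 DIO + DHA mice was sequenced by an adaptation of SCRB-seq with 3′-enriched cDNA. Per the file headers, the labels and the methods, the authors aligned reads to GRCm39 with STAR 2.7.9a and deposited whole-number counts per gene over exons of GENCODE vM33, from featureCounts 1.6.0 without strand, multi-mapping or overlap options. The sources used here do not say if molecular identifiers were merged, and floors cover counting error only.

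The 8 tables were joined on 56884 identifiers, of which 56323 were named from GENCODE vM39. Groups came from the sample titles, and all libraries carry batch label 1. Totals ranged from 1723800 to 5690347 counts. Following the study's filter, genes with fewer than 5 counts in over 50% of a group's libraries, in both groups, were left out. For the remaining 12412 genes, edgeR 4.0.16 (R 4.3.3) gave quasi-likelihood tests (TMM scaling, robust dispersions, Benjamini-Hochberg over all of them, call at an adjusted p under 0.05). Standard errors are the fold change over the root of F. Count ratios, with 0.5 added to each count, and marker sums were compared by exact two-sided permutation, whose smallest p is 0.0179. Promoters were read from GRCm39 at transcript starts of GENCODE vM39.

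The members and lists were chosen with earlier results of these data known, and the lists from general knowledge. Named genes are all members, every called gene of the other lists (topped up to 4 by abundance where fewer), and, of the marker lists, genes without counts and the 3 most abundant. Other genes named were chosen after their values were seen. Alternatives covered DESeq2 1.42.0 (size factors, Wald test), limma-voom (limma 3.58.1), library size, TMM without muscle and squamous genes, 3 other filters, a replicate block and leaving out each library. The limma-voom fit entered as 2 of the 18 settings, called at B above 0 and at an adjusted p under 0.05. The code was tested on simulated data. Further promoter sequences, results for 2 other motifs and the summed level of the bile duct list are not reported here. Quantitative PCR, histology and serum data were not analysed here.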

Additional observations from a re-analysis of the deposited data

Results flagged for a closer look

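Values of the DIO + DHA group were searched for a library far from the other 4, by the gap to its neighbour relative to the whole range, in 32 quantities (26 genes and 6 ratios). Chance flags about 1 in 20 such groups, and 3 were found. Slco1b2 was at 808 CPM in replicate 6 and at 727 to 746 CPM in the other DIO + DHA libraries. Abcc2 was at 89.3 CPM in replicate 6 and at 104 to 109 CPM in the others. The Abcb11 to Slc10a1 log2 ratio was -2.80 in replicate 5 and -2.60 to -2.56 in the others. The groups of 3 DIO libraries were too small for this search.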

How the results depend on the processing

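The 10 genes kept the sign of their fold change in all 180 alternative values, and 163 of these lay on the same side of the threshold. The 180 values count the fold changes of the limma-voom fit under both of its thresholds. The number of the 10 genes called lower moved from 4 to 1 with limma-voom at B above 0 and to 2 with the replicate block, and lay between 1 and 4 when 1 library was left out, with 1 without DIO replicate 4 and 2 without DIO replicate 5. The number called higher was 2, and 3 without DIO replicate 1, where Cyp7a1 passed. Of the other bile acid genes, 6 in place of 10 were called lower at B above 0. With B above 0, Cyp27a1 (-0.27), Slc27a5 (-0.20) and Baat (-0.26) lost their calls. Slc27a5 also lost its call with the Wald test of DESeq2 (-0.19), without a filter (-0.18) and with the replicate block (-0.19), as did Baat with the block (-0.24). Leaving out 1 library gave log2 fold changes of 0.12 to 0.26 for Cyp7a1, -0.30 to -0.23 for Cyp27a1, -0.23 to -0.12 for Slc27a5 and -0.29 to -0.20 for Baat. It gave differences of -0.56 to -0.31 for the Cyp27a1 to Cyp7a1 ratio and -0.53 to -0.38 for the Cyp7b1 to Cyp7a1 ratio. The latter had an exact permutation p of 0.0571 without DIO + DHA replicate 1, 2, 4 or 5. Samples with the same replicate number did not deviate together (correlations of -0.01, -0.01 and -0.02 for numbers 1, 4 and 5). So few libraries cannot show whether such samples share more than a number. Numbers 2 and 6 occur only in the DIO + DHA group, so with the block these libraries added nothing to the group difference. That difference then rested on the 3 pairs of numbers 1, 4 and 5. The block therefore cannot tell an effect of pairing from the loss of those libraries. It moved the calls over all genes from 1883 to 1538, and limma-voom at B above 0 without it called 860. None of the 3 DIO libraries correlated best with its own number. Among the scalings, library size alone moved the median of all genes most, by -0.02. At this depth, genes near the count minimum, such as Slco1a1, had intervals too wide to show a difference. The cause of a lost call was not tested.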
